A study of Mus musculus with 8 samples.

Results

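The receptors and co-receptors of the Hedgehog pathway were examined in sorted cells of mouse medulloblastoma. They are 6 genes, Ptch1, Smo, Hhip, Boc, Cdon and Gas1, out of 22180 genes named on the arrays, and were taken by name and not by their values. Each was read by 1 probe set (a group of probes summarised to 1 value), numbered 17293607 for Ptch1, 17456721 for Smo, 17510772 for Hhip, 17330577 for Boc, 17515921 for Cdon and 17293313 for Gas1. The study compared 2 fractions of the same kind of tumour, Sox2-eGFP+ cells and Sox2-eGFP- cells, called Sox2-positive and Sox2-negative here. All animals of both fractions were Patched1+/- and carried the Sox2eGFP reporter (CD1 and B6 parents), had been irradiated with 3 Gy at birth and were over 70 days old when signs of a brain tumour appeared. White blood cells (by CD45) and red blood cells (by Ter119) were removed before the sort. Each fraction had 4 arrays, and each array held the pooled RNA of 3 tumours, so p-values measure the spread between pools and not between single animals. Every group carried the Patched1 mutation, and normal cerebellum was not analysed here.

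Hedgehog ligands bind Patched proteins on the cell surface, which releases Smoothened (encoded by Smo) from inhibition and lets Gli transcription factors act. Ptch1 and Hhip are also targets of this signal, so that a cell with an active pathway makes more of its own inhibitors. Boc, Cdon and Gas1 encode co-receptors that bind the ligand and help it act through Ptch1. In the developing cerebellum, Sonic hedgehog from Purkinje cells drives the division of granule neuron progenitors, and mice with 1 mutant Ptch1 copy are prone to medulloblastomas that arise from these cells.

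Of the 6 genes, Boc was lower in Sox2-positive cells, and the other 5 did not pass the test. Boc stood at 63.8% of its Sox2-negative level, and its 4 Sox2-positive values all lay below the 4 Sox2-negative ones. Smo had a log2 difference of -0.39, with an adjusted p just above the threshold of 0.05 and below it when pools of equal number were paired. Ptch1, Hhip, Cdon and Gas1 had positive log2 differences between 0.17 and 0.25, with intervals that reached zero. For comparison, 8.47% of all genes tested passed, 2.52% lower and 5.96% higher, and groups that did not overlap were found for 13.7% of genes (6.07% with the Sox2-positive values lower and 7.63% with them higher). Here 1 of 6 genes, Boc, passed, and for 1 of 6, the same gene, the groups did not overlap. The median log2 difference was 0.17 over the 6 genes and -0.03 over all genes. Values are on a log2 scale after RMA (background correction, normalization between arrays and summary per probe set), differences are Sox2-positive minus Sox2-negative, and tests are from limma with adjustment over all 22180 genes.

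The promoters of Ptch1 and Hhip are shown because both genes are known Gli targets. The windows are the 250 bases before the RefSeq start of each gene (build GRCm38.p6), 5′ to 3′ on the gene's own strand. They lie at chr13:63565736-63565985 on the minus strand for Ptch1 and at chr8:80058009-80058258 on the minus strand for Hhip. Capitals mark the first of the 9-base stretches closest to the Gli motif GACCACCCA, searched on both strands.
Ptch1: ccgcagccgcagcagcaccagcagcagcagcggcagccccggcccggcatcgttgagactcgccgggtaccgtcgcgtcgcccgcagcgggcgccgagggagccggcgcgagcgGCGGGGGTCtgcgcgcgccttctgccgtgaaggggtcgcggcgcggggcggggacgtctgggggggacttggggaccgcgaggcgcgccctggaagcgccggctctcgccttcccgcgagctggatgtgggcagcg
Hhip: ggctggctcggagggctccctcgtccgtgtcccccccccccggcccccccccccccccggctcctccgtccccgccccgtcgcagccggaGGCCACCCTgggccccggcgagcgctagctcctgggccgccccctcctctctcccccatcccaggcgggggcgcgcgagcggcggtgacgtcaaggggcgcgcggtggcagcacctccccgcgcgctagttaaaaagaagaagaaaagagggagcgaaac
The exact motif was in neither window, and 0.225% of 32851 RefSeq windows of this length held it. The closest stretch of Hhip had 2 mismatches, as near a match as in 51.8% of windows, and the 4 closest of Ptch1 had 3, as in 98.6%. These letters thus do not set the windows of Ptch1 and Hhip apart, and the search covers no more than the 250 bases shown. Windows were matched for 5 of the 6 genes (all except Boc), and those of Smo, Cdon and Gas1 held 0 exact matches.

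Ptch1, the receptor that holds Smoothened inactive and the gene mutated in these mice, had log2 values of 6.77, 6.72, 7.11 and 6.77 in Sox2-positive pools 1 to 4. In Sox2-negative pools 1 to 4 it had 6.85, 6.57, 6.17 and 6.78. The groups overlapped, and both extremes came from arrays numbered 3, the highest Sox2-positive and the lowest Sox2-negative value. The ratio of Sox2-positive to Sox2-negative cells was 1.19 for Ptch1, with a 95% interval of 0.963 to 1.47 (limma adjusted p = 0.36). The interval does not show that the fractions were alike. Where the probes lie relative to the targeted part of Ptch1 was not known here, and the level does not tell the mutant from the intact copy. Between arrays of equal number the log2 difference was -0.08, 0.15, 0.94 and -0.01 for numbers 1 to 4, so that the arrays numbered 3 carried most of the mean. The log2 difference of Ptch1 was 0.25 over all arrays, 0.16 without Sox2-positive pool 3 and 0.11 without Sox2-negative pool 3.

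Hhip, which encodes a membrane protein that binds Hedgehog ligands and keeps them from Ptch1, had log2 values of 6.15, 6.07, 7.02 and 6.46 in Sox2-positive pools 1 to 4. Its Sox2-negative values were 6.38, 6.19, 6.26 and 6.17. The Sox2-negative values lay close together (SD 0.10) and the Sox2-positive ones spread widely (SD 0.43), on both sides of them. The mean log2 difference was 0.17 (SE 0.17, limma adjusted p = 0.638), and without Sox2-positive pool 3 it turned to -0.026 (adjusted p = 0.947). Averaged over the groups, the spread of Hhip within groups was larger than that of 97.2% of all genes, and that of Ptch1 larger than that of 91.2%.

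Sox2-positive pool 3, the highest array for both Ptch1 and Hhip, also had the highest mean level of the astrocyte markers, 7.58 against 6.89 to 7.08 in the other Sox2-positive pools. Its Sox2 value, 6.36, was the highest of the 4 as well (5.67 to 6.07 in the others). Among these pools it also had the highest mean level of granule neuron lineage markers (7.67 against 7.36 to 7.55). That list holds genes of progenitors and of differentiating granule neurons, and its members differed. Cntn2 was highest in Sox2-positive pool 3 (8.21 against 7.33 to 7.64), and Atoh1 was lowest there (8.54 against 8.74 to 8.96). The mean level of microglia and macrophage markers was also highest in this pool (5.66 against 5.54 to 5.57). Its mean level of oligodendrocyte progenitor markers, 9.14, was below that of Sox2-positive pool 2 (9.34). The part of these differences between pools in the values of Ptch1 and Hhip was not tested. The within-array difference Ptch1 minus Hhip changed by 0.08 between the fractions (95% interval -0.42 to 0.57; exact permutation p = 0.686, two-sided), so no difference between these 2 inhibitors in their response was detectable.

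Smo, the receptor-like membrane protein that passes the signal on, had log2 values of 8.47, 8.23, 8.10 and 8.30 in Sox2-positive pools 1 to 4, against 8.73, 8.91, 8.59 and 8.41 in Sox2-negative pools. All but 1 of the Sox2-positive values lay below every Sox2-negative one. The exception was Sox2-positive pool 1, which lay above Sox2-negative pool 4. The mean was 8.27 ± 0.16 over the Sox2-positive pools and 8.66 ± 0.21 over the Sox2-negative pools (SD, n = 4 each), a log2 difference of -0.39 (95% interval -0.64 to -0.13, limma adjusted p = 0.0603). With the replicate number as a block the same difference passed (limma adjusted p = 0.0388). All 4 pool numbers had a negative difference between arrays of equal number, from -0.68 for number 2 to -0.11 for number 4. It also passed after quantile normalization (log2 difference -0.47, adjusted p = 0.0238), without Sox2-positive pool 1 (-0.45, adjusted p = 0.0395) and without Sox2-negative pool 4 (-0.47, adjusted p = 0.0272). The call of Smo thus turned on these choices, while its log2 difference lay between -0.47 and -0.30 in all 14 alternatives run.

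Smo and Ptch1 are the pair at the centre of the pathway, and their difference within each array was set against the sort. Ptch1 minus Smo had a log2 difference of 0.64 between Sox2-positive and Sox2-negative arrays (95% interval 0.04 to 1.23). The exact permutation test over the 70 ways to split the arrays gave p = 0.0571 (two-sided; 0.0952 adjusted over the 5 pairs compared), where the smallest p it can give is 0.0286.

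**Figure D1:**
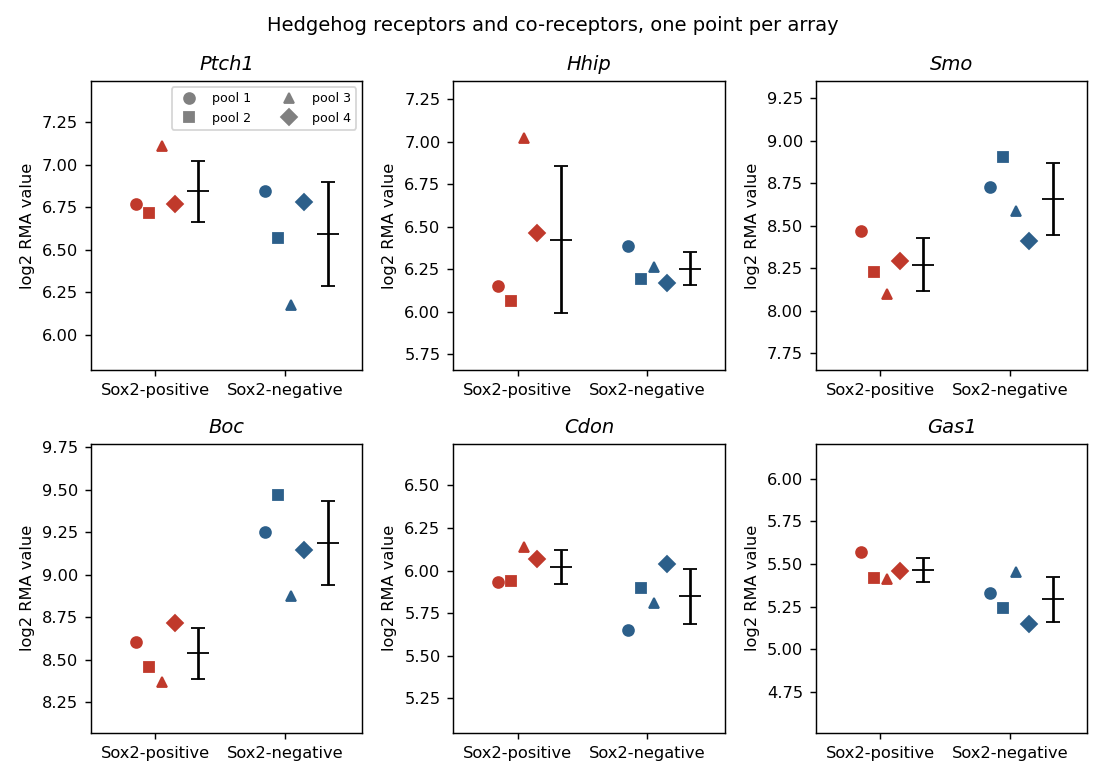
Log2 RMA values (y axis, the same span of 1.7 in each panel) of the 6 genes in Sox2-positive (red, left) and Sox2-negative (blue, right) arrays, with 1 point per array, the marker giving the pool number and bars the mean ± SD of 4 arrays. The groups stand apart for Boc, while Ptch1 and Hhip have their highest value in Sox2-positive pool 3.

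Boc, a transmembrane co-receptor of the immunoglobulin superfamily that in mice contributes to the response of granule neuron progenitors to Sonic hedgehog, had log2 values of 8.61, 8.46, 8.37 and 8.71 in Sox2-positive pools 1 to 4. In Sox2-negative pools 1 to 4 it had 9.25, 9.47, 8.88 and 9.15. The highest Sox2-positive value lay below the lowest Sox2-negative one, a separation in this direction that 6.07% of all genes showed. Boc fell by 0.65 on the log2 scale (SE 0.12, 95% interval -0.92 to -0.38, limma adjusted p = 0.00433). The mean was 8.54 ± 0.15 over the Sox2-positive pools and 9.19 ± 0.25 over the Sox2-negative pools (SD, n = 4 each). Of the 558 genes that were lower in the limma test, it had the 112th largest difference. In these bulk samples, fewer cells that use Boc and less Boc RNA per cell cannot be told apart. The fall was seen in all 4 pool numbers, with log2 differences between arrays of equal number of -0.64, -1.01, -0.50 and -0.43. It passed in all 14 alternatives run, with adjusted p between 0.00127 and 0.0188.

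The fractions also differed in markers of cell types, which are given here beside the fall of Boc. Sox2 itself ranged over 5.67 to 6.36 in the Sox2-positive arrays and 4.04 to 4.60 in the Sox2-negative arrays. Of 14 granule neuron lineage markers, 13 were lower and 0 higher. Their mean log2 level was 7.36 to 7.67 in Sox2-positive and 8.26 to 8.49 in Sox2-negative arrays. They include Atoh1, a gene of progenitors (log2 difference -0.71), and Cntn2, a gene of differentiating granule neurons (-1.49). Of 10 oligodendrocyte progenitor markers, 9 were higher and 0 lower (mean level 8.77 to 9.34 in Sox2-positive and 6.42 to 6.48 in Sox2-negative arrays). Of 11 astrocyte markers, 8 were higher and 0 lower (6.89 to 7.58 in Sox2-positive and 6.10 to 6.18 in Sox2-negative arrays). Of all genes, 2.52% were lower and 5.96% higher. The part of these markers in the fall of Boc was not tested.

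Cdon, the paralog of Boc with the same kind of extracellular domains, had log2 values of 5.93, 5.94, 6.14 and 6.07 in Sox2-positive pools 1 to 4, against 5.65, 5.89, 5.81 and 6.04 in Sox2-negative pools. The groups overlapped, and Sox2-negative pool 4 reached into the Sox2-positive range. The log2 difference was 0.17 (SE 0.10, 95% interval -0.05 to 0.39, limma adjusted p = 0.382). It was 0.11 without Sox2-negative pool 1. The values of Cdon lay near the median of all genes, which was 5.83 to 5.88 over the arrays. As a guide to dim values, genes of olfactory and vomeronasal receptors, not expected in a brain tumour, had an upper quartile of 5.80, and 7 of the 8 Cdon values lay above it.

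Gas1, a co-receptor tethered to the membrane by a lipid anchor, had log2 values of 5.57, 5.42, 5.41 and 5.46 in Sox2-positive pools 1 to 4, against 5.33, 5.24, 5.45 and 5.15 in Sox2-negative pools. The groups overlapped through Sox2-negative pool 3. The log2 difference was 0.17 (SE 0.09, 95% interval -0.03 to 0.37, limma adjusted p = 0.33). All 8 values lay between the median (4.95) and the upper quartile (5.80) of the olfactory and vomeronasal receptor genes, a range in which RMA compresses differences.

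The 3 co-receptors were also compared with each other within arrays. Boc minus Cdon had a log2 difference of -0.82 between Sox2-positive and Sox2-negative arrays (95% interval -1.25 to -0.39), and Boc minus Gas1 one of -0.82 (95% interval -1.26 to -0.38). For both, no Sox2-positive array overlapped with a Sox2-negative one, and the exact permutation p was 0.0286, the smallest that 70 splits can give. Adjusted over the 5 pairs it was 0.0714, so neither passed. With this smallest p, a pair can pass only if other pairs reach it too, so this outcome does not rest on the Boc pairs alone. Cdon minus Gas1 had a difference of -0.0007 (95% interval -0.38 to 0.38, exact permutation p = 1).

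**Figure D2:**
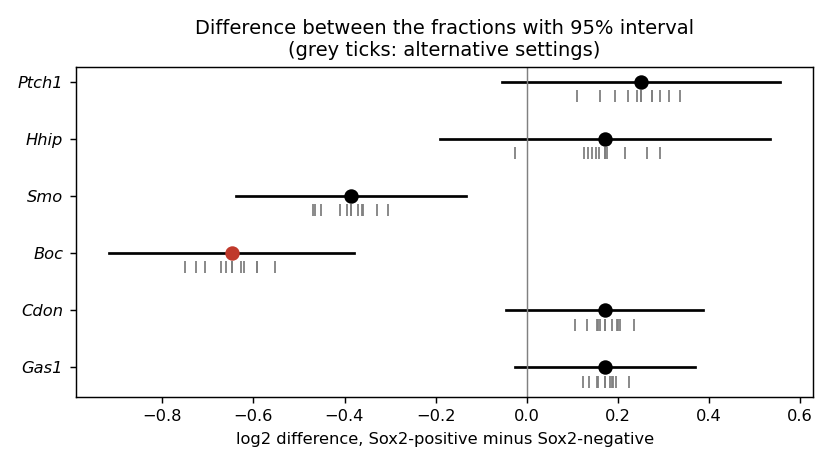
Log2 difference between Sox2-positive and Sox2-negative cells (x axis) for each gene, with its 95% interval from limma as a line and the values under the 14 alternatives as grey ticks. Boc, in red, has an adjusted p of 0.00433, Smo lies below zero in every alternative, and Hhip crosses zero in 1 of them.

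**Figure D3:**
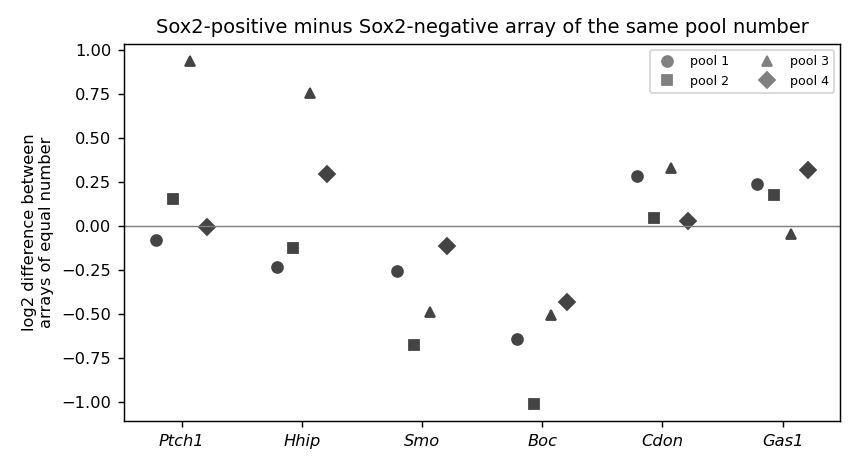
Difference in log2 value between the Sox2-positive and the Sox2-negative array of equal pool number (y axis) for each gene, with 1 marker per pool. All 4 differences are negative for Boc and Smo and positive for Cdon, while pool 3 stands at 0.94 for Ptch1 and 0.76 for Hhip.

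The profile nearest to that of Boc over the 8 arrays was that of Gli2, the main transcriptional activator of the Hedgehog response. Nearness was the root mean square distance between log2 profiles centred on each gene's mean, and it was 0.07 for Gli2, where Boc itself varied by 0.37 around its own mean. Gli2 had log2 values of 7.36, 7.06, 7.21 and 7.51 in Sox2-positive pools 1 to 4, against 7.96, 8.17, 7.51 and 7.81 in Sox2-negative pools. As with Boc, Sox2-negative pool 2 was the highest and Sox2-negative pool 3 the lowest of its group. The nearest genes of each member were picked on these same arrays. A pool order and a difference like the member's therefore follow from the choice and are no separate evidence. Gli2 fell by 0.58 (SE 0.14, limma adjusted p = 0.0176), and did not pass when Sox2-positive pool 2, Sox2-positive pool 3 or Sox2-negative pool 1 was left out (adjusted p = 0.0530 to 0.0648). The next nearest were Fzd7, a Wnt receptor (distance 0.09, log2 difference -0.67, adjusted p = 0.00536), and Cecr2, a chromatin remodelling gene (distance 0.09, log2 difference -0.68, adjusted p = 0.00107).

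**Figure D4:**
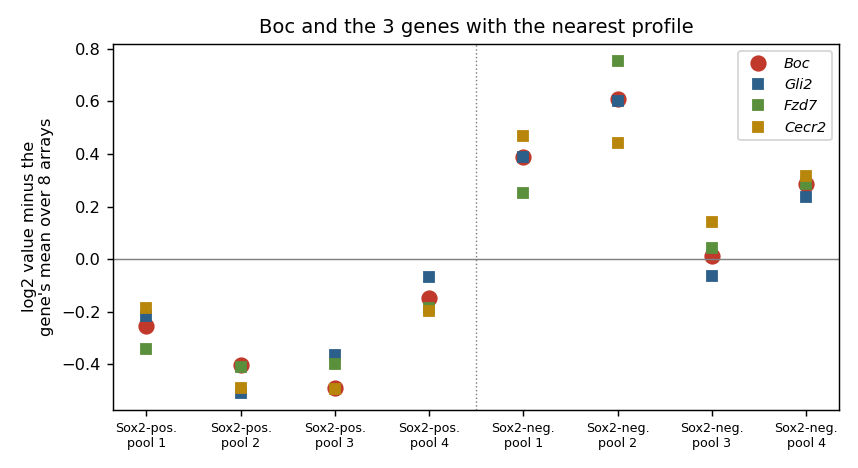
Log2 value minus the gene's mean over 8 arrays (y axis) for Boc (circles) and the 3 genes of nearest profile (squares), with Sox2-positive arrays left and Sox2-negative arrays right of the dotted line. All 4 genes are highest or next to highest in Sox2-negative pool 2, and each has its lowest Sox2-negative value in pool 3. The 3 genes were picked for nearness on these arrays, so a shared pattern follows from the choice.

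For Smo, the nearest profiles were those of Slc5a12, a sodium-coupled monocarboxylate transporter, Ccnd2, which encodes cyclin D2, and Rassf3, all at a distance of 0.07. Ccnd2 had a log2 difference of -0.37 and missed the threshold as narrowly as Smo (limma adjusted p = 0.0601). For Ptch1 the nearest were Smad3, a mediator of TGF-beta signals (distance 0.09), the potassium channel gene Kcna3 (0.10) and Hs6st2, an enzyme that sulfates heparan sulfate (0.12). For Hhip they were Cnih1 (0.13), Uba7 (0.14) and Mxra8 (0.14), farther than for any other member. Cdon and Gas1 varied little over the arrays (0.15 and 0.13 around their means), and their nearest genes, Scd4, Zfp367 and Cwc15 for Cdon and Plekhg3, Chst14 and Gstt2 for Gas1, were other genes that varied little.

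The rest of the pathway was read through 5 lists, set against the 5.96% of genes that were higher and the 2.52% that were lower overall. Of 10 genes for ligands and their release, 6 had both group means below the upper quartile of the olfactory and vomeronasal receptor genes. Among the 10, 1 was higher and 0 lower, with a median log2 difference of -0.06. It was Adam17, a surface protease (log2 difference 0.44, limma adjusted p = 0.0184), which did not pass when Sox2-positive pool 3, Sox2-negative pool 1 or Sox2-negative pool 4 was left out (0.0519 to 0.0640). Shh, the ligand of the cerebellum, averaged 4.45 ± 0.23 in the Sox2-positive pools and 4.36 ± 0.11 in the Sox2-negative pools (SD, n = 4 each), below the median of the olfactory and vomeronasal receptor genes. Shh was singled out after its values were seen.

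Of 10 other surface proteins of the pathway, 2 were higher and 0 lower. Both were glypicans, cell surface heparan sulfate proteoglycans. Gpc5 had log2 values of 7.39, 7.28, 7.60 and 6.94 in Sox2-positive pools 1 to 4, against 6.42, 6.20, 6.07 and 6.01 in Sox2-negative pools. The groups did not overlap, and Gpc5 was 2.18-fold higher (SE 0.14 on the log2 scale, limma adjusted p = 0.000104). Gpc6 was 1.52-fold higher (adjusted p = 0.00871), also with no overlap. The other 8 did not pass.

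Of 24 cytoplasmic transducers, 3 were lower and 1 higher, with a median log2 difference of -0.06. Gli2 is described above. Sufu, which binds and restrains Gli factors, fell by 0.55 (adjusted p = 0.00749), and by 0.32 when its 2 probe sets were averaged. Stk36, a kinase named for its fly relative Fused, fell by 0.32 (adjusted p = 0.0394), a call that ended in 7 of 14 alternatives, namely the replicate block (0.0566) and leaving out any 1 of pools 1 to 3 of either fraction (up to 0.118). Arrb1, a beta-arrestin, was higher, with 7.84 ± 0.14 in the Sox2-positive pools and 7.16 ± 0.11 in the Sox2-negative pools (SD, n = 4 each; log2 difference 0.68, limma adjusted p = 0.000465). Leaving out Sox2-positive pool 2, Sox2-positive pool 3 or Sox2-negative pool 1 left 1 lower transducer.

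Of 14 genes known as targets of the pathway in some tissue, 4 were higher and 4 lower, with a median of -0.26. The 14 do not include the targets Ptch1 (log2 difference 0.25) and Hhip (0.17), which are described above. Hhat, which did not pass, is also counted among the genes for ligands and their release. Mycn, a driver of progenitor division, fell by 0.79 (limma adjusted p = 0.00171), the Wnt antagonist gene Sfrp1 by 0.75 and Atoh1 by 0.71. Mycn and Atoh1 are also counted among the granule neuron lineage markers. The call of Atoh1 (limma adjusted p = 0.0278) did not hold when any 1 of Sox2-positive pools 1 to 3 or of Sox2-negative pools 1 and 4 was left out (0.0543 to 0.0868). Nkx2-2, a homeobox factor that the oligodendrocyte lineage also uses, was 2.96-fold higher and Eya1 2.80-fold higher. Ccnd1 (1.49-fold, limma adjusted p = 0.00282) and Bcl2 (1.37-fold, limma adjusted p = 0.0275) were also higher, each with no overlap between the fractions. Both were named after their values were seen and were not followed by name in the alternatives. Gli1, the target most often used to read the pathway and chosen here for that reason after its values were seen, had log2 values of 7.19, 6.61, 6.63 and 7.03 in Sox2-positive pools 1 to 4. In Sox2-negative pools 1 to 4 it had 7.82, 7.54, 7.09 and 7.31. Gli1 fell by 0.57 (limma adjusted p = 0.0461). That call ended in 7 of 14 alternatives, with array weights and when Sox2-positive pool 2, 3 or 4, or pool 1, 2 or 4 of the Sox2-negative fraction, was left out (0.0506 to 0.147). It held in the other 7, among them the replicate block (limma adjusted p = 0.00552). Set against Ptch1 within each array, Gli1 minus Ptch1 had a log2 difference of -0.83 between the fractions (95% interval -1.38 to -0.27), with no overlap between their arrays. The exact permutation p was 0.0286, or 0.0667 adjusted over all 7 pairs, 2 of them chosen after the values were seen. For Gli1 minus Hhip, the second of these, the difference was -0.75 (95% interval -1.55 to 0.06, exact permutation p = 0.0571). Over the alternatives, 2 to 6 targets were lower and 3 or 4 higher. The number of lower targets was 2 without Sox2-positive pool 2, without Sox2-positive pool 3 or without Sox2-negative pool 1.

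Of 16 genes of the primary cilium, the organelle in which Smoothened acts, 0 passed in limma (2 had an unadjusted p under 0.05, as had 20.1% of all genes), and the median log2 difference was -0.11. The largest was that of Dync2h1, a motor of ciliary transport, at -0.26 (95% interval -0.46 to -0.07, adjusted p = 0.106).

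**Figure D5:**
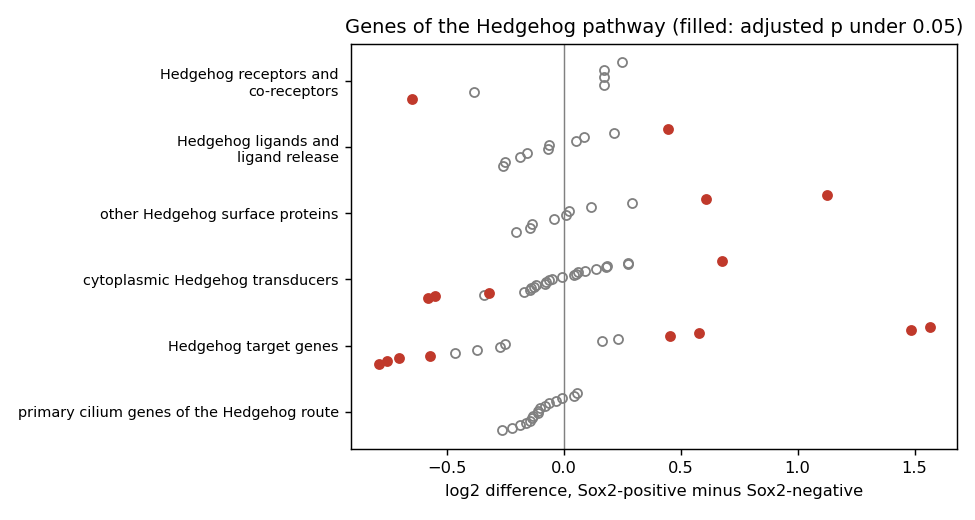
Log2 difference between Sox2-positive and Sox2-negative cells (x axis) for each measured gene of the 6 Hedgehog lists (rows), with genes of adjusted p under 0.05 filled red and the others open. The receptors and co-receptors hold 1 filled gene (Boc), the targets hold 4 on either side of zero, and the cilium genes hold none.

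Markers of cells outside these lineages were set against the 8.47% of all genes that passed. Of 11 microglia and macrophage markers, 0 passed in limma, with 2 at an unadjusted p under 0.05, against 20.1% of all genes (mean level 5.54 to 5.66 in Sox2-positive and 5.51 to 5.73 in Sox2-negative arrays). For 6 of the 11, both group means lay below the upper quartile of the olfactory and vomeronasal receptor genes. Of 10 endothelial markers, 0 passed in limma, with 1 at an unadjusted p under 0.05 (mean level 5.23 to 5.30 in Sox2-positive and 5.31 to 5.45 in Sox2-negative arrays), and 8 of the 10 had both group means below the upper quartile of the olfactory and vomeronasal receptor genes. Of 12 pericyte and fibroblast markers, 2 were higher, as were 5.96% of all genes (mean level 5.94 to 6.11 in Sox2-positive and 5.82 to 5.97 in Sox2-negative arrays). They were Cspg4, which is also among the oligodendrocyte progenitor markers, and Rgs5 (log2 difference 0.37, limma adjusted p = 0.0174), both named after their values were seen. The call of Rgs5 ended when its probe sets were averaged (0.21, adjusted p = 0.252) and without Sox2-positive pool 4 (0.35, adjusted p = 0.0571). Of 2 red blood cell markers measured, 0 passed in limma, and 0 had an unadjusted p under 0.05. For these 2 as well, both group means lay below that upper quartile.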

How the data were processed

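Per the submitters' processing notes, the authors used RMA in Affymetrix Expression Console 1.2.0.20. The deposited values, 1 per probe set and array, were read as log2, the scale on which RMA reports, from their range (2.51 to 13.6). RMA compresses differences of dim genes, and its normalization removes any difference in total RNA per cell. The genome build of the probes is not given in the sources used here. Of 41345 probe sets, 23521 had 1 gene symbol in the platform annotation, 1814 had several and 16010 were unnamed here. Per gene the probe set with the highest mean over 8 arrays was kept, which gave 22180 genes. RefSeq identifiers (GRCm38.p6) matched 23328 probe sets and changed 0 symbols.

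The fit used limma 3.58.1 (R 4.3.3; group as the only term), two-sided, with Benjamini-Hochberg adjustment over all genes and a threshold of 0.05. The procedure was tested on simulated data. Pairs of members were compared by an exact permutation test over arrays, adjusted over 5 pairs. The number of arrays limits the precision. Genes named were the 6 members, Sox2, the 3 genes of nearest profile for each member (predicted models left out), and from each Hedgehog list up to 5 genes past the test, by size, or the 1 largest. Shh, Gli1, Ccnd1, Bcl2, Rgs5, Cspg4, Cntn2 and Hhat were named after their values were seen. The members and lists were chosen with earlier results of these data known. Some genes of the lists are not analysed here.

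The labels number pools 1 to 4 in both fractions and do not say whether pools of equal number share tumours. Deviations from the group means correlated at 0.164, 0.114, 0.177 and 0.241 between arrays of equal number, against at most 0.161 between different numbers, so equal numbers were treated as pairs in an alternative fit. Other alternatives were quantile normalization, the mean of probe sets, dimmer genes left out, a variance trend, array weights and each array left out.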

Additional observations from a re-analysis of the deposited data

Results flagged for a closer look

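The Ptch1 value of Sox2-positive pool 3 (7.11) stood apart from the other 3 Sox2-positive pools (6.72 to 6.77). Its gap to the nearest of them was 0.864 of the group's whole range, above Dixon's 95% critical value for 4 samples. A total of 12 groups (6 genes in 2 fractions) were looked at in this way, and chance flags about 1 in 20. Without this array the log2 difference of Ptch1 was 0.16 (limma adjusted p = 0.651).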

How the results depend on the processing

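The fall of Boc passed in all 14 alternatives. Ptch1, Cdon and Gas1 stayed on their side of the threshold and of zero in all 14, though with 1 array left out Ptch1 lay between 0.11 and 0.34 and Cdon between 0.11 and 0.24. Smo passed after quantile normalization (-0.47) and with the replicate block (-0.39, adjusted p = 0.0388); with 1 array left out its log2 difference lay between -0.47 and -0.30, with adjusted p of 0.0272 to 0.175. The difference of Hhip lay between -0.026 and 0.29 with 1 array left out, below zero in the 1 case without Sox2-positive pool 3. Besides making Smo pass, the replicate block ended the call of Stk36 (limma adjusted p = 0.0566) and made Ccnd2 (0.0339) and Rassf3 (0.0394) pass. It changed no other call of a gene followed by name in the alternatives. Ccnd2 and Rassf3 also passed after quantile normalization (0.0430 and 0.0427). With 1 array left out, their lowest limma adjusted p was 0.0387 and 0.0212. With 1 array left out the difference of Shh lay between -0.010 (without Sox2-positive pool 4) and 0.16. The number of lower genes, 558, was 847 after quantile normalization and 309 to 591 with 1 array left out (309 without Sox2-positive pool 2, 361 without Sox2-positive pool 4, 357 without Sox2-negative pool 1). With 1 array left out, Boc minus Cdon lay between -0.91 and -0.72, Boc minus Gas1 between -0.98 and -0.71, and Ptch1 minus Smo between 0.49 and 0.78. Without Sox2-negative pool 4 these 3 pairs passed together (adjusted exact permutation p = 0.0476), a call in which each depends on the others. Cdon minus Gas1 lay between -0.078 and 0.11 and Ptch1 minus Hhip between -0.065 and 0.19, both turning sign. Paired by number, the sign-flip test of the pairs cannot go below an exact p of 0.125. The difference of Uba7 lay between -0.086 and 0.11 (-0.086 without Sox2-positive pool 3 and -0.0088 without Sox2-positive pool 4). Gli1 minus Ptch1 and Gli1 minus Hhip, added after seeing the data, lay between -0.96 and -0.66 and between -0.95 and -0.47. The causes of these changes were not tested. The arrays give no detection call, so how far Gas1 and Cdon stood above background is not known.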
